A study of Mus musculus with 18 samples.

Results

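Lipolysis in brown adipocytes was examined through 9 genes that encode its enzymes and regulators: Pnpla2, Lipe, Mgll, Abhd5, G0s2, Hilpda, Aqp7, Gk and Gpd1. They were taken by symbol from the deposited table, in which each symbol named 1 of 54347 listed genes. All 9 were among the 14949 genes with enough counts for testing. Polyadenylated RNA had been sequenced from wt1-SAM cells, a mouse brown preadipocyte line, immortalised and equipped with the CRISPRa SAM system, so that every library came from 1 line. All cells were differentiated with insulin, T3, rosiglitazone, dexamethasone, indomethacine and IBMX, and were transfected on day 4, at 500000 cells per well, with 1.4 µl of a 10 µM LNA gapmer, a short antisense oligonucleotide that directs RNase H to its target. LNA1 and LNA2 were directed against the long non-coding RNA Gm15551, and ctrlA was the non-targeting control. Cells were harvested on day 7, either unstimulated or after 24 h with 1 µM isoproterenol, a β-adrenergic agonist. The 3 LNAs and 2 states gave 6 groups of 3 libraries, numbered 2, 3 and 4 in each group.

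Triglyceride in the lipid droplet is broken down in steps, by ATGL (encoded by Pnpla2), by hormone-sensitive lipase (Lipe) and by monoacylglycerol lipase (Mgll), which release fatty acids and finally glycerol. The first step is set by partners of ATGL: CGI-58 (Abhd5) activates it, whereas G0S2 (G0s2) and HILPDA (Hilpda) inhibit it. Glycerol leaves the cell through the channel AQP7 (Aqp7) or is phosphorylated by glycerol kinase (Gk), and the dehydrogenase encoded by Gpd1 links glycerol 3-phosphate to glycolysis. In brown fat β-adrenergic signalling through cAMP and protein kinase A activates lipolysis within a short time by phosphorylation, and the fatty acids feed and activate thermogenesis; transcript levels are a separate layer of this control.

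The gapmers are shown first because they define the groups. Each is written 5′ to 3′ as the study's designed sequence.
ctrlA: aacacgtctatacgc
LNA1: gatgactgagattaga
LNA2: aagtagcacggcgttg
They are 15, 16 and 16 bases long. In a search of the transcripts of 55450 genes, LNA1 and LNA2 each had a perfect complement in Gm15551 only, and ctrlA had none. In the transcripts of the 9 lipolysis genes the longest complementary run was 7 bases for ctrlA, 9 bases for LNA1 (in Gk) and 8 bases for LNA2. Gm15551 itself was too low to check the knockdown. It had 1 to 14 counts per library, 42 in total with ctrlA, 24 with LNA1 and 27 with LNA2, and its level was 0.493 ± 0.267 CPM (SD, n = 6) with ctrlA, 0.341 ± 0.347 CPM after LNA1 (exact permutation test within each state, two-sided, p = 0.335) and 0.368 ± 0.373 CPM after LNA2 (exact permutation p = 0.5). A knockdown was therefore not detectable at this depth in these libraries. The study itself reports a robust reduction of Gm15551 by both gapmers on day 7 against the control LNA.

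For 3 genes the promoter is also shown: Hilpda and Gk, whose transcripts were higher upon isoproterenol, and Aqp7, which was lower. For Hilpda and Aqp7 this refers to the comparison of libraries of the same number. Each window runs from 250 bases before to 50 after an annotated start in RefSeq on GRCm38.p6, in which 8 of the 9 genes have an entry, with 12 starts in all. Gpd1 has no entry there. Capitals mark the cAMP response element core TGACG (or its reverse complement CGTCA) and the hypoxia response core ACGTG (or CACGT); both strands were searched, and the motifs can overlap in TGACGTG.
Hilpda, start 2, chr6:29272376-29272675, plus strand: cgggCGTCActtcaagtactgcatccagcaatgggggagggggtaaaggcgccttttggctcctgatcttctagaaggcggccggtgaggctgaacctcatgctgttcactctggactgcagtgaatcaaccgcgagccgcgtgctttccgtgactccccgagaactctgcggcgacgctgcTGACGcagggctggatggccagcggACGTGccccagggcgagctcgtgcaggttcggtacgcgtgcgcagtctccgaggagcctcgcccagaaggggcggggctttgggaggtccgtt
Gk, chrX:85776770-85777069, minus strand: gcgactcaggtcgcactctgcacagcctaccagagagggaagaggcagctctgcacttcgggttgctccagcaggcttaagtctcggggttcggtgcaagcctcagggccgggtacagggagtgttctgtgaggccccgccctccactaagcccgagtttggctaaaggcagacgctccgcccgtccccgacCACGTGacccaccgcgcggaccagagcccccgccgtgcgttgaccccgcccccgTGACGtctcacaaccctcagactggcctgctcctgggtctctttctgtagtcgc
Aqp7, start 1, chr4:41048087-41048386, minus strand: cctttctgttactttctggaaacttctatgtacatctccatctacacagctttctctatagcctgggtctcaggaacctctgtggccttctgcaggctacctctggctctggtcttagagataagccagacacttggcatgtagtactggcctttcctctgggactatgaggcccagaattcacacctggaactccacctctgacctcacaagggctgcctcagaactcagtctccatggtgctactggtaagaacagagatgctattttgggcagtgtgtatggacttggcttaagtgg
The Hilpda window holds the TGACG core at 2 places and the ACGTG core at 1, and the Gk window holds TGACG at position -4 from the start and ACGTG on both strands of 1 CACGTG palindrome. Neither core occurs in the Aqp7 window. Over all 12 windows TGACG was present in those of G0s2, Abhd5, Gk, both starts of Hilpda and 1 start of Mgll, and the full palindrome TGACGTCA was present in none. Of these genes, G0s2 and Abhd5 were lower upon isoproterenol when libraries of the same number were compared. ACGTG was present in the second Hilpda window, in that of Gk, in both of Mgll and in 1 of Lipe. Lipe was lower upon isoproterenol when libraries of the same number were compared. For comparison, TGACG occurred in 20.8%, ACGTG in 19.6% and TGACGTCA in 1.79% of 32851 promoter windows of the same length. A match describes the letters in these windows and not the binding of a factor.

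Sequencing depth lay between 9167560 and 19723021 counts per library, so that 3 counts corresponded to 0.170 to 0.306 CPM, the unit of counts scaled for library size. All 9 lipolysis genes were far above this floor, from Aqp7 with 260 to 827 counts per library to Gpd1 with 15851 to 52252. The 6 libraries of replicate 2 stood apart. Their ribosomal RNA made up 2.88 to 14.3% of counts and mitochondrial transcripts 7.86 to 9.79%, against 0.285 to 1.04% and 2.56 to 4.97% in replicates 3 and 4. The 9 genes together took 0.325 to 0.456% of counts in replicate 2 and 0.567 to 0.784% in replicates 3 and 4. The labels do not name separate cultures, so p-values measure the spread between these libraries, which may be technical. Ucp1, the uncoupling protein of brown fat, was at 0.62 to 1.57 CPM in unstimulated and 9.40 to 16.5 CPM in stimulated libraries, in the direction given by the stimulation labels.

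The level of each gene differed by replicate number, and not in the same direction. Pnpla2 was at 600.3 ± 102 CPM in the 6 libraries of replicate 2 and 1255 ± 140.5 CPM in the 12 of replicates 3 and 4 (SD), with ranges of 508 to 728 and 1058 to 1476 CPM that did not overlap. Lipe was at 525.8 ± 106 CPM in the 6 libraries of replicate 2 and 1022 ± 155 CPM in the 12 of replicates 3 and 4, and Gpd1 at 1722 ± 210.5 CPM in the 6 libraries of replicate 2 and 3066 ± 444 CPM in the 12 of replicates 3 and 4. Mgll showed a smaller gap of the same kind, with 133 ± 9.08 and 185 ± 15.9 CPM, and these 3 genes also had ranges that did not overlap. In Aqp7 the ranges overlapped, although its mean was lower in replicate 2 (28.9 ± 6.03 against 46.0 ± 11.2 CPM). Conversely, Abhd5, G0s2, Hilpda and Gk had higher means in replicate 2, by 0.29 (Gk) to 0.59 (Hilpda) on the log2 scale, with overlapping ranges. Thus the triglyceride and diglyceride lipases and Gpd1 were lower and the ATGL partners were higher in the same 6 libraries. Each comparison was therefore made without a replicate term and with the replicate number as a block, which compares libraries of the same number.

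The 9 genes lie on 7 chromosomes of GRCm38. Pnpla2 (ENSMUSG00000025509.15, chr7:141455198-141460743, plus strand) and Lipe (ENSMUSG00000003123.15, chr7:25379527-25398710, minus strand) share chromosome 7, and Mgll (ENSMUSG00000033174.17, chr6:88724412-88828360, plus strand) and Hilpda (ENSMUSG00000043421.8, chr6:29272488-29275446, plus strand) share chromosome 6. The others are Abhd5 (ENSMUSG00000032540.16, chr9:122351608-122381524, plus strand), G0s2 (ENSMUSG00000009633.3, chr1:193272161-193273217, minus strand), Aqp7 (ENSMUSG00000028427.13, chr4:41033074-41048139, minus strand), Gk (ENSMUSG00000025059.16, chrX:85701937-85776819, minus strand) and Gpd1 (ENSMUSG00000023019.12, chr15:99717515-99725005, plus strand). Counts cover all exons of each gene, whose merged length runs from 871 bases in G0s2 to 7743 in Gk. The use of strand in counting is not stated, so reads of Lipe, Mgll, Abhd5, Gk and Gpd1 and of the opposite-strand genes that overlap their exons cannot be told apart.

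**Figure D1:**
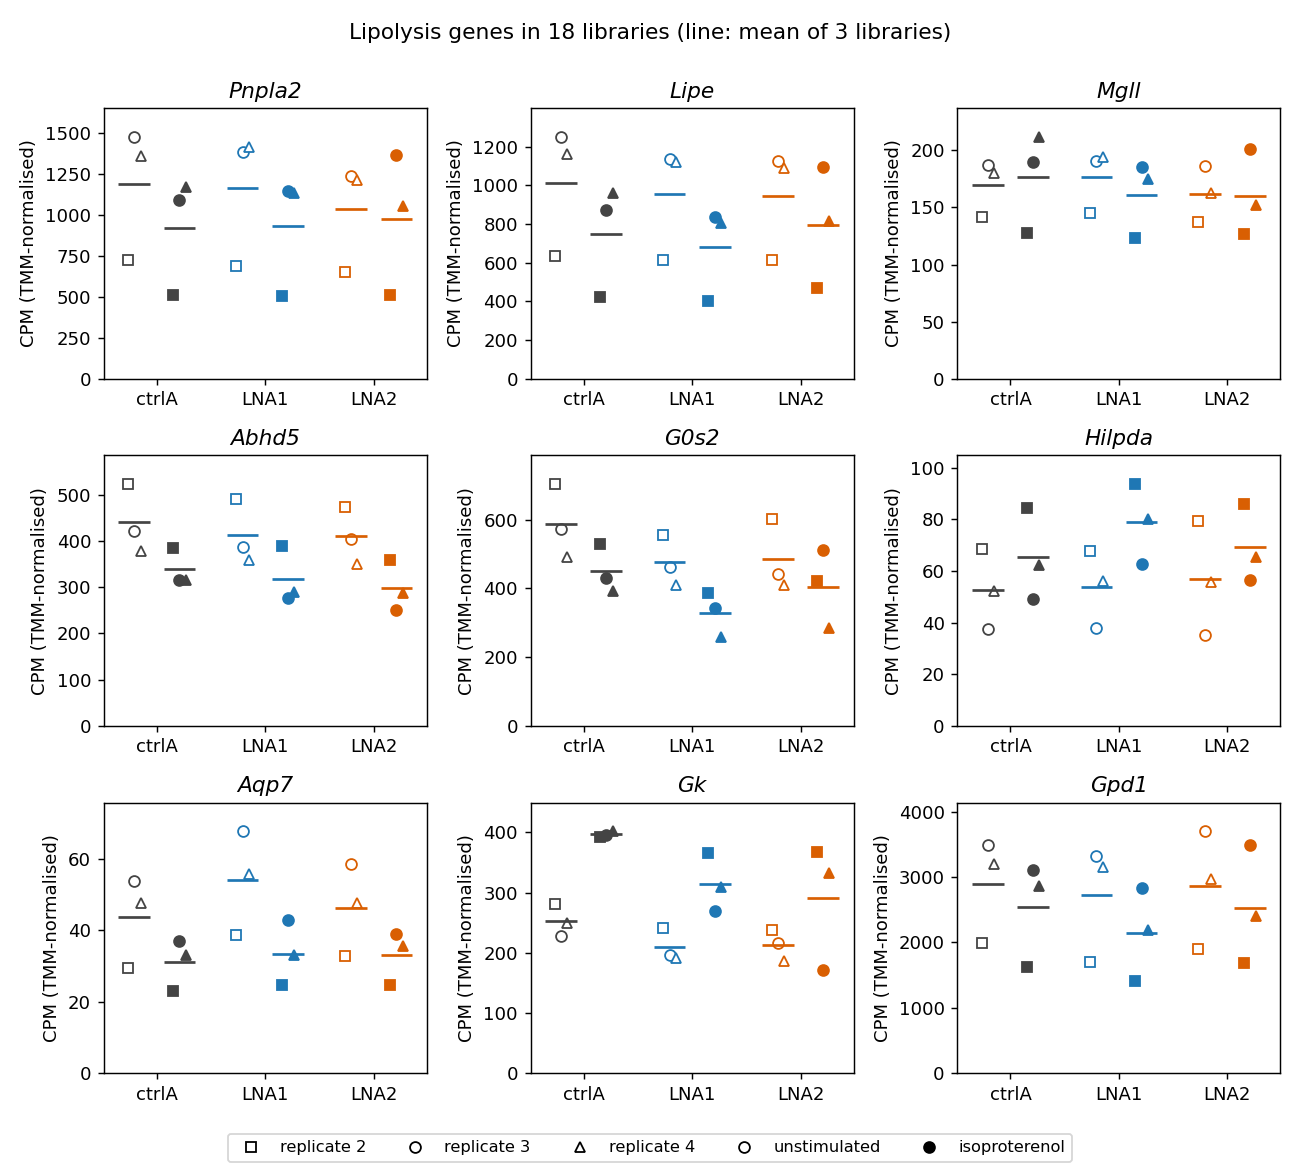
Level of each of the 9 genes in all 18 libraries, in CPM, by LNA and state, with points distinguished by replicate number and bars for the group mean. In Pnpla2, Lipe, Mgll and Gpd1 the replicate 2 libraries lie below all others, whereas in Hilpda their mean is the higher one (80.0 against 54.3 CPM).

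Levels between genes were compared per kb of exon (CPM divided by the length of the merged exons, mean ± SD over 18 libraries). Gpd1 was highest at 884 ± 254, followed by the inhibitor G0s2 at 523 ± 128, Pnpla2 at 343 ± 113 and Lipe at 145 ± 47.0. Abhd5 at 62.1 ± 12.7, Hilpda at 57.0 ± 15.7, Gk at 36.1 ± 10.2 and Mgll at 33.0 ± 5.59 followed, and the glycerol channel gene Aqp7 was lowest at 14.3 ± 4.49. Among neighbours in this order, Pnpla2 was above Lipe, Lipe above Abhd5 and Mgll above Aqp7 in 18 of 18 libraries. Hilpda was above Gk in 17, G0s2 above Pnpla2 in 16 and Gpd1 above G0s2 in 14 libraries. The 4 libraries with G0s2 above Gpd1 were all of replicate 2, of which 2 had Gpd1 the higher, whereas Gpd1 was above G0s2 in 12 of 12 libraries of replicates 3 and 4. The order of Abhd5 and Hilpda followed the state. Abhd5 was above Hilpda in 9 of 9 unstimulated libraries (70.7 ± 10.3 against 49.4 ± 14.1 CPM per kb, SD), and Hilpda was above Abhd5 in 8 of 9 stimulated libraries (64.5 ± 13.9 against 53.5 ± 8.26). Gk and Mgll were less clearly ordered, with Mgll the higher in 6 of 9 unstimulated and Gk in 7 of 9 stimulated libraries. Per kb of merged exon the ATGL inhibitor G0s2 was thus above its activator Abhd5 and, in most libraries, above Pnpla2 itself. The merged exons come from 1 annotated transcript for G0s2, 7 for Pnpla2 and 8 for Abhd5. They can be longer than the transcripts that these cells express, so the order of genes depends on this choice of length. Without scaling for length the means over 18 libraries were 1037 CPM for Pnpla2, 455 CPM for G0s2 and 370 CPM for Abhd5.

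**Figure D2:**
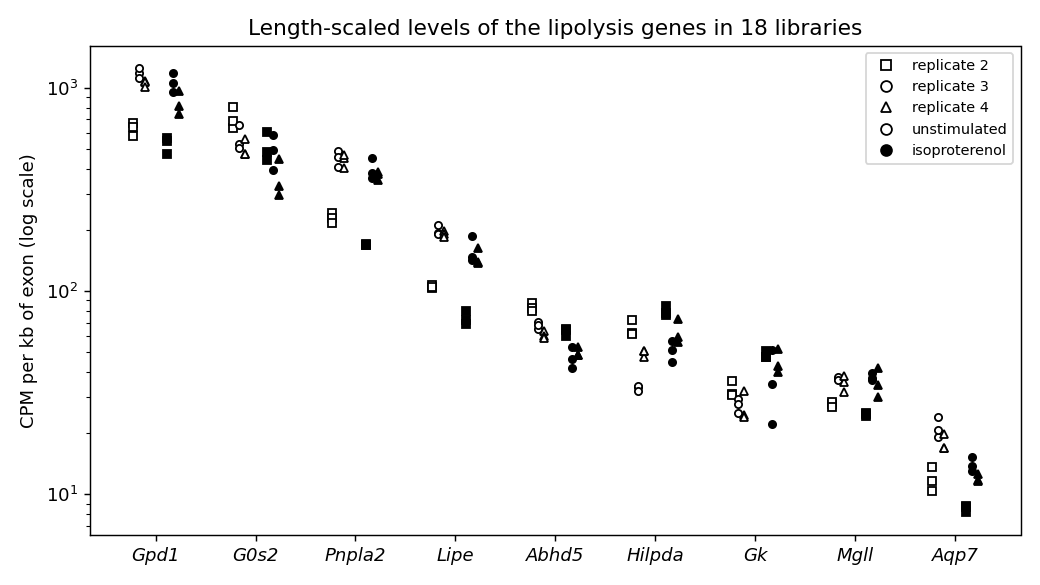
CPM per kb of exon for each gene on a log axis, with 1 point per library, open for unstimulated and filled for stimulated. Genes are ordered by their mean over 18 libraries. Gpd1 and G0s2 head the order and Aqp7 is last, with Abhd5 and Hilpda at 62.1 and 57.0 over both states, between which their order turned.

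The question of what β-adrenergic stimulation did to these genes was addressed by comparing 9 stimulated with 9 unstimulated libraries, averaged over the LNAs. Upon isoproterenol Gk rose, with 1.48-fold higher expression. When libraries of the same number were compared, Hilpda rose as well, and Pnpla2, Lipe, Abhd5, G0s2, Aqp7 and Gpd1 fell by 0.25 (Gpd1) to 0.55 (Aqp7) on the log2 scale. Mgll passed neither test. Without the block 1 of 9 genes was called (Gk; edgeR quasi-likelihood test, adjusted p under 0.05), where 4.58% of all 14949 genes were called. With the block 8 of 9 were called, 2 higher and 6 lower, where 26.4% of all genes were called. DESeq2 called 3 of 9 without the block (Gk higher, Abhd5 and Aqp7 lower), where it called 7.12% of all genes, and 8 of 9 with it, where it called 25.6%. The median log2 fold change of the 9 genes was -0.26 without and -0.29 with the block, beside -0.0021 over all genes without it. Changes are given on the log2 scale with their SE. In these bulk libraries fewer cells of a type and less RNA per cell cannot be told apart.

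**Figure D3:**
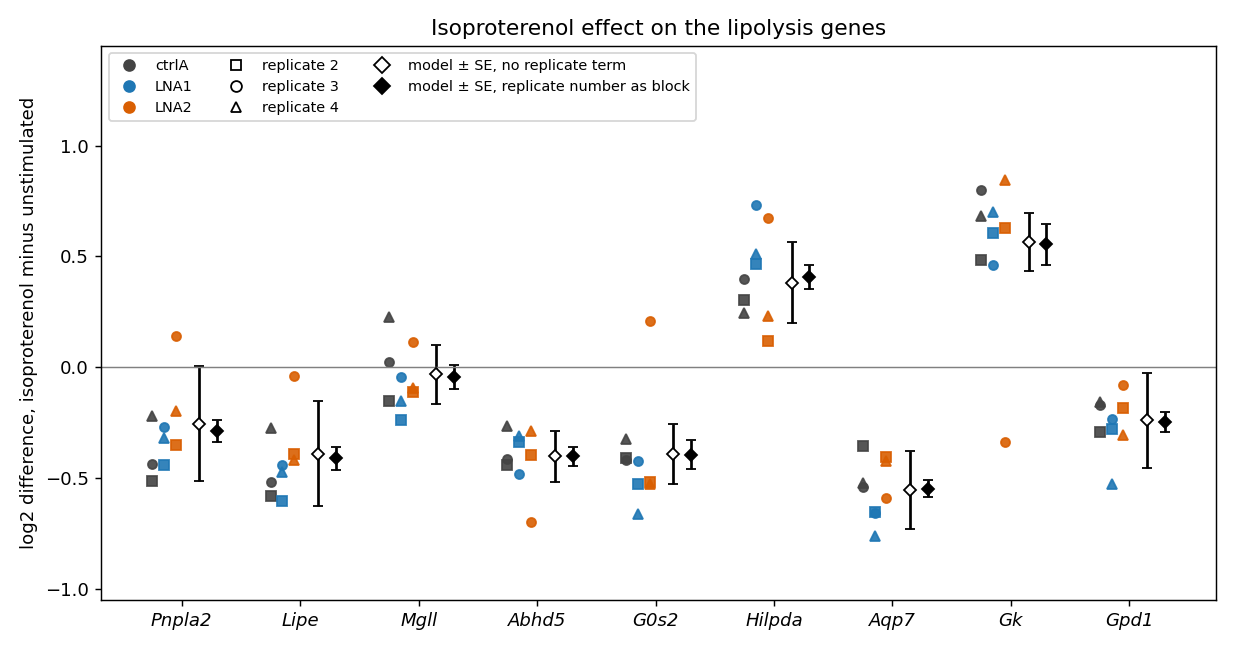
Log2 difference of stimulated minus unstimulated CPM for each gene, with 1 point for each of the 9 pairs of libraries of the same LNA and replicate number. All 9 pairs lie below 0 for Lipe, Abhd5, Aqp7 and Gpd1 and above 0 for Hilpda.

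Gk, the kinase that returns glycerol to glycerol 3-phosphate, was the only one of the 9 that edgeR called over all libraries both with and without the block. In unstimulated cells it was at 281, 228 and 250.1 CPM in ctrlA libraries, 240.2, 196 and 190.3 in LNA1 libraries and 238, 216 and 186 in LNA2 libraries (replicates 2, 3 and 4). In stimulated cells it was at 392, 396 and 402 CPM in ctrlA libraries, 366, 269.6 and 309 in LNA1 libraries and 368, 171 and 333 in LNA2 libraries. All stimulated libraries except replicate 3 of LNA2 were above their unstimulated counterpart, and that library was the lowest of all 18. The pooled means were 225 ± 31.4 CPM and 334 ± 75.4 CPM (SD, n = 9 each; log2 change of 0.56 ± 0.13, adjusted p = 0.0212 in edgeR). With the block the values were 0.55 ± 0.09, adjusted p = 0.000282. Without stimulated LNA2 replicate 3 the log2 fold change was 0.65 (adjusted p = 0.000613), and with the block as well 0.64 (adjusted p = 1.95e-08). The call without the block was kept in 17 of 21 fits that left out a library or a replicate number, and was lost without unstimulated ctrlA replicate 3 (adjusted p = 0.0517), unstimulated LNA1 replicate 3 (0.0501), replicate 3 (0.0745) or replicate 4 (0.471). The Gk gene lies on the X chromosome and overlaps exons of Gm14764 on the opposite strand.

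Aqp7, the aquaglyceroporin through which adipocytes release glycerol, was lower in each pair. It was at 29.4, 53.9 and 47.7 CPM in ctrlA libraries, 38.7, 67.8 and 55.9 in LNA1 libraries and 32.7, 58.6 and 47.7 in LNA2 libraries without stimulation. After isoproterenol it was at 23.0, 37.0 and 33.2 CPM in ctrlA libraries, 24.6, 43.0 and 33.0 in LNA1 libraries and 24.7, 38.9 and 35.6 in LNA2 libraries. Each stimulated library was below its unstimulated counterpart, by 0.35 to 0.76 on the log2 scale, although the 2 states overlapped with replicate 2 low in both. The means were 48.1 ± 12.6 CPM and 32.5 ± 7.03 CPM (SD, n = 9 each; log2 change of -0.56 ± 0.18, adjusted p = 0.0943, edgeR). DESeq2 called it without the block (adjusted p = 0.0387), and edgeR did so without replicate 2 (-0.59, adjusted p = 0.00157). In edgeR over all libraries Aqp7 was called with the block (-0.55 ± 0.04, adjusted p = 5.03e-08), and this call was kept in each of the 21 fits that left out libraries (highest adjusted p = 0.00013, without replicate 4). Gk and Aqp7, which handle the same glycerol, thus moved in opposite directions.

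Gpd1, the most abundant transcript of the list, showed a small change. Its values ranged from 1707 to 3703 CPM with a median of 3166 in unstimulated and from 1406 to 3498 CPM with a median of 2407 in stimulated libraries. The ranges overlapped widely, but each stimulated library lay below its counterpart, by 0.08 to 0.53 on the log2 scale. The means were 2832 ± 753 CPM and 2403 ± 729.9 CPM (SD, n = 9 each; log2 change of -0.24 ± 0.22, adjusted p = 0.748, edgeR), and with the block Gpd1 was called (-0.25 ± 0.05, adjusted p = 0.000875). Gpd1 overlaps exons of Gm16537 on the opposite strand.

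Among the lipases, Lipe was lower in each pair. Lipe was at 633, 1248 and 1159 CPM in ctrlA libraries, 613, 1137 and 1119.5 in LNA1 libraries and 615, 1125 and 1089 in LNA2 libraries without stimulation. With isoproterenol it was at 423, 870.0 and 958 CPM in ctrlA libraries, 403, 838 and 806 in LNA1 libraries and 468, 1096 and 814 in LNA2 libraries. The fall was seen in 9 of 9 pairs and was smallest in replicate 3 of LNA2 (-0.04 on the log2 scale). The means were 971 ± 267 CPM and 742 ± 249.6 CPM (SD, n = 9 each; log2 change of -0.39 ± 0.24, adjusted p = 0.536, edgeR), with the block -0.41 ± 0.05, adjusted p = 1.42e-05. When replicate 2 was left out, Lipe was called without the block as well (log2 fold change -0.36, adjusted p = 0.00823).

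Pnpla2, which encodes the lipase of the first step, was lower in 8 of 9 pairs. Its level ranged from 653 to 1476 CPM with a median of 1238 in unstimulated and from 508 to 1365 CPM with a median of 1089.8 in stimulated libraries. The pair that went the other way was replicate 3 of LNA2 (0.14 on the log2 scale). The means were 1129.6 ± 339.7 CPM and 944 ± 337 CPM (SD, n = 9 each; log2 change of -0.26 ± 0.26, adjusted p = 0.799, edgeR), and the block gave -0.29 ± 0.05, adjusted p = 0.000478. Without the block the value moved to -0.36 without stimulated LNA2 replicate 3 and to -0.16 without stimulated LNA2 replicate 2. Mgll, the lipase of the last step, was at 169 ± 23.0 CPM and 166 ± 34.3 CPM (SD, n = 9 each; log2 change of -0.03 ± 0.13, adjusted p = 0.975, edgeR), and with the block at -0.04 ± 0.05, adjusted p = 0.569. It was higher in 3 pairs and lower in 6, and its direction turned when some libraries were left out. In Lipe and Mgll exons of 4732471J01Rik and Gm26588 overlap on the opposite strand.

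Of the ATGL partners, the activator Abhd5 and the inhibitor G0s2 were both lower and the inhibitor Hilpda was higher. Abhd5 was at 522, 422 and 378 CPM in ctrlA libraries, 492, 386 and 359.7 in LNA1 libraries and 473, 405 and 350.4 in LNA2 libraries in unstimulated cells. In stimulated cells it was at 385, 316 and 315 CPM in ctrlA libraries, 389, 276 and 290.3 in LNA1 libraries and 359.5, 249.5 and 287 in LNA2 libraries. It was lower in 9 of 9 pairs, by 0.26 to 0.70 on the log2 scale. The means were 421 ± 61.3 CPM and 319 ± 49.2 CPM (SD, n = 9 each). Without the block it did not pass in edgeR (log2 change of -0.40 ± 0.11, adjusted p = 0.0622) but did in DESeq2 (adjusted p = 0.0145), and with the block edgeR called it (-0.40 ± 0.04, adjusted p = 3.28e-06). In edgeR without the block it passed in 4 of the 21 fits that left out libraries (adjusted p from 0.00194 to 0.726). Abhd5 overlaps exons of A730085K08Rik on the opposite strand.

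G0s2, the inhibitor with the higher level, was at 702, 574 and 489.8 CPM in ctrlA libraries, 555, 461 and 410.4 in LNA1 libraries and 601, 442 and 411 in LNA2 libraries without stimulation. Upon isoproterenol it was at 528, 429 and 391 CPM in ctrlA libraries, 385, 344 and 259 in LNA1 libraries and 420.2, 510.2 and 285 in LNA2 libraries. In 8 of 9 pairs it was lower, and in replicate 3 of LNA2 it was higher by 0.21 on the log2 scale. The means were 516 ± 98.9 CPM and 395 ± 90.9 CPM (SD, n = 9 each; log2 change of -0.39 ± 0.14, adjusted p = 0.14, edgeR), and the block gave -0.40 ± 0.07, adjusted p = 0.000272. Without stimulated LNA2 replicate 3 the blocked log2 fold change of G0s2 was -0.47 (adjusted p = 2.15e-08).

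Hilpda, the hypoxia-inducible inhibitor, was at 68.5, 37.4 and 52.5 CPM in ctrlA libraries, 67.7, 37.8 and 56.2 in LNA1 libraries and 79.5, 35.4 and 55.7 in LNA2 libraries in unstimulated cells. In stimulated cells it was at 84.6, 49.2 and 62.2 CPM in ctrlA libraries, 93.6, 62.8 and 80.2 in LNA1 libraries and 86.2, 56.4 and 65.3 in LNA2 libraries. It was higher in 9 of 9 pairs, by 0.12 to 0.73 on the log2 scale. Its means were 54.5 ± 15.6 CPM and 71.2 ± 15.3 CPM (SD, n = 9 each; log2 change of 0.38 ± 0.18, adjusted p = 0.349, edgeR), and with the block it was called (0.41 ± 0.05, adjusted p = 3.4e-05). All 8 blocked calls of this comparison were kept in each of the 21 fits without a library or a replicate number, with the highest adjusted p for Pnpla2 (0.0384, without replicate 2).

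The adipocyte markers moved with these falls in part. Adipoq, the adipokine gene of mature adipocytes, fell from 616 ± 102 to 379 ± 84.3 CPM (log2 fold change -0.71, edgeR adjusted p = 0.0073). Fabp4 (adjusted p = 0.357), Plin1 (0.737), Cebpa (0.878) and Pparg (1) did not pass, while with the block Fabp4 and Plin1 were called (adjusted p = 6.46e-06 and 8.58e-05). The summed level of the 5 markers lay between 12081 and 22614 CPM in unstimulated and between 8748 and 16814 CPM in stimulated libraries. Their part in the changes of the lipolysis genes was not tested. Of 6 brown adipocyte markers Ucp1, Cidea and Ppargc1a rose (adjusted p = 1.12e-08, 0.0011 and 0.00147), Elovl3 (0.111, and 7.51e-05 with the block, by which it was higher) and Prdm16 (0.967) did not pass without the block, and Dio2 had at most 4 counts. Of 5 preadipocyte markers Ly6a rose (adjusted p = 0.0415), Pdgfra (0.973) and Cd34 (0.896) did not pass, and Dlk1 and Thy1 reached at most 9 and 2 counts; the summed level of this list was 14.9 to 74.9 CPM over all libraries. Of 4 macrophage markers Cd68 rose (adjusted p = 0.00618) and Csf1r (0.982) did not pass, while Adgre1 and Ptprc had at most 2 and 3 counts and the list summed to 8.17 to 44.3 CPM. Endothelial markers summed to 1.67 to 3.90 CPM.

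Within each LNA the same comparison rested on 3 against 3 libraries. Without the block edgeR called 0 of 9 genes in ctrlA, LNA1 or LNA2 cells, where it called 0.488%, 0.702% and 0.395% of all genes. DESeq2 without the block also called 0 of 9 in each, where it called 1.32%, 1.76% and 1.18% of all genes. In edgeR 1, 3 and 1 of the 9 were at an unadjusted p under 0.05. The share of all genes under that unadjusted limit is not given here, so these counts cannot be set against it. With the block 6 of 9 were called in ctrlA cells (1 higher, 5 lower), 8 in LNA1 cells (2 higher, 6 lower) and 3 in LNA2 cells (1 higher, 2 lower), where 7.88%, 9.84% and 9.55% of all genes were called. In ctrlA cells Gk was higher (253 ± 26.7 CPM and 397 ± 4.55 CPM, SD, n = 3 each; blocked adjusted p = 0.0151), and Pnpla2 (0.0102), Lipe (0.00338), Abhd5 (0.00409), G0s2 (0.0487) and Aqp7 (0.000319) were lower. Hilpda narrowly missed the limit there (0.32 ± 0.09, adjusted p = 0.0508). In LNA1 cells Hilpda and Gpd1 were called in addition (blocked adjusted p = 0.000752 and 0.0104). In LNA2 cells the called genes were Abhd5 (0.000939), Aqp7 (0.000366) and Hilpda (0.0367). The counts depended on which libraries entered the fit. Without stimulated LNA2 replicate 3 the blocked counts were 8 in ctrlA, 8 in LNA1 and 7 in LNA2 cells, where 12.8%, 15.4% and 7.39% of all genes were called, so that the ctrlA count moved as well. Without replicate 2 they were 1, 2 and 1, where 2.36%, 3.63% and 2.37% of all genes were called.

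In replicate 3 of stimulated LNA2 cells Gk was at 171 CPM, below its unstimulated counterpart at 216 CPM, and Pnpla2 (1365 against 1238 CPM) and G0s2 (510.2 against 442 CPM) were above theirs. The Gk difference between stimulated and unstimulated libraries was 0.48, 0.80 and 0.68 in ctrlA, 0.61, 0.46 and 0.70 in LNA1 and 0.63, -0.34 and 0.84 in LNA2 cells (log2, replicates 2, 3 and 4). In this library Ucp1 was at 12.6 CPM, within the range of the other stimulated libraries. Its share of counts from mitochondrial genes was 2.56%, the lowest of the 18 libraries (the next was 3.67%), and the part of this in its values was not tested. Whether the response to isoproterenol differed between LNAs was tested as an interaction. The interaction of LNA1 called 0 of 9 genes and that of LNA2 called 0 of 9, in edgeR and in DESeq2 and with or without the block, and 0% of all genes were called by edgeR. In edgeR 0 and 0 were at an unadjusted p under 0.05 without the block, and 1 and 0 with it (Aqp7 with LNA1, log2 difference -0.21, adjusted p = 1). The share of all genes under that unadjusted limit is not given here. Thus the smaller number of calls in LNA2 cells is not shown to be a difference in response.

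The effect of the gapmers against Gm15551 was compared with ctrlA over both states, 6 against 6 libraries. With LNA1, G0s2 was lower and Aqp7 higher when libraries of the same number were compared, and with LNA2, Gk was lower. Without the block neither gapmer gave a call in edgeR (0 of 9 genes for each), where 0.475% and 1.59% of all genes were called. DESeq2 without the block also called 0 of 9 for each, where it called 1.26% and 3.5% of all genes. In edgeR 1 gene for each gapmer was at an unadjusted p under 0.05, a limit for which the share of all genes is not given here. With the block 2 of 9 were called for LNA1 (1 higher, 1 lower) and 1 for LNA2 (lower), where 7.8% and 20.6% of all genes were called. DESeq2 with the block called 3 for each, where it called 8.65% and 21% of all genes. In edgeR 1 of 9 for LNA2 was a smaller share than the 20.6% of all genes. The median log2 change of the 9 genes was -0.09 with LNA1 and -0.06 with LNA2, beside -0.02 over all genes for each. Both comparisons use the same 6 ctrlA libraries.

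G0s2 was lower with LNA1 in 6 of 6 pairs. Its means were 589 ± 107 CPM with ctrlA and 476 ± 73.6 CPM with LNA1 in unstimulated cells, and 449 ± 70.6 CPM and 329 ± 64.5 CPM in stimulated cells (SD, n = 3 each). In unstimulated cells the groups overlapped, whereas in stimulated cells all LNA1 libraries (385, 344 and 259 CPM) were below all ctrlA libraries (528, 429.5 and 391 CPM). The edgeR test gave a log2 change of -0.38 ± 0.17, adjusted p = 0.761, and with the block -0.38 ± 0.08, adjusted p = 0.0083. The blocked call was kept in 19 of 21 fits without a library or replicate number (highest adjusted p = 0.159, without replicate 4). With LNA2 G0s2 was lower in 5 of 6 pairs and did not pass (blocked -0.22 ± 0.08, adjusted p = 0.0622). Without stimulated LNA2 replicate 3 it was called with LNA2 too (blocked log2 fold change -0.33, adjusted p = 5.49e-05).

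Aqp7 was higher with LNA1 in 5 of 6 pairs. Its means were 43.7 ± 12.7 CPM and 54.1 ± 14.6 CPM in unstimulated and 31.1 ± 7.22 CPM and 33.5 ± 9.22 CPM in stimulated cells (ctrlA, then LNA1; SD, n = 3 each), and the groups overlapped in both states. edgeR gave a log2 change of 0.21 ± 0.21, adjusted p = 1, and with the block 0.21 ± 0.05, adjusted p = 0.0153. The value without the block lay between 0.10 (without stimulated LNA1 replicate 3) and 0.31 (without stimulated LNA1 replicate 2) when libraries were left out. The blocked call was kept in 16 of 21 such fits (highest adjusted p = 0.129, without replicate 2). With LNA2 Aqp7 did not pass (blocked 0.09 ± 0.05, adjusted p = 0.205).

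Gk was lower with LNA2 in 6 of 6 pairs and also lower with LNA1 in 6 of 6 pairs, with a call for LNA2 only. In unstimulated cells its means were 253 ± 26.7 CPM in the ctrlA group, 209 ± 27.4 CPM in the LNA1 group and 213 ± 26.4 CPM in the LNA2 group, and in stimulated cells 397 ± 4.55 CPM, 315 ± 48.3 CPM and 291 ± 105 CPM (SD, n = 3 each). In stimulated cells all LNA1 and LNA2 libraries were below all ctrlA libraries. For LNA2 edgeR gave a log2 change of -0.35 ± 0.16, adjusted p = 0.452 (-0.44 without stimulated LNA2 replicate 2, -0.21 without stimulated LNA2 replicate 3), and with the block -0.37 ± 0.11, adjusted p = 0.0308. The blocked call was kept in 12 of 21 fits without a library or replicate number (log2 fold change -0.45 to -0.24, highest adjusted p = 0.135, without replicate 4). The pair differences with LNA2 included -1.21 in stimulated replicate 3, and without that library the blocked log2 fold change was -0.24 (adjusted p = 0.00814). For LNA1 the blocked values were -0.31 ± 0.11, adjusted p = 0.104, and -0.32 (adjusted p = 0.0012) without stimulated LNA2 replicate 3.

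In edgeR over all libraries the other 6 genes did not pass with either gapmer, with or without the block. Gpd1 was lower with LNA1 in 6 of 6 pairs (blocked -0.18 ± 0.06, adjusted p = 0.0732) and Abhd5 was lower with LNA2 in 6 of 6 pairs (blocked -0.14 ± 0.05, adjusted p = 0.0629), and DESeq2 with the block called both. In edgeR with the block Gpd1 passed with LNA1 in 3 of the 21 fits that left out libraries (without stimulated LNA2 replicate 3, adjusted p = 0.0149; without stimulated LNA2 replicate 4, 0.0295; without unstimulated LNA1 replicate 4, 0.0419). Abhd5 passed with LNA2 in 2 (without unstimulated LNA2 replicate 3, 0.0331, and without stimulated LNA2 replicate 4, 0.0228), and Pnpla2 passed with LNA2 in 1 (without stimulated LNA2 replicate 3, log2 change of -0.13, 0.0475). For the lipases the blocked log2 fold changes were between -0.10 and -0.00387 over both gapmers, with Lipe lower with LNA1 in 6 of 6 pairs (-0.10 ± 0.06, adjusted p = 0.361). With libraries left out, this Lipe value lay between -0.13 (without stimulated ctrlA replicate 3) and -0.05 (without stimulated ctrlA replicate 4). Hilpda was at 0.16 and 0.09, with adjusted p-values of 0.161 and 0.357. Its blocked value with LNA2 lay between 0.05 (without stimulated LNA2 replicate 3) and 0.14 (without unstimulated LNA2 replicate 3) when libraries were left out. Comparing the gapmers directly, LNA2 against LNA1, edgeR called 0 of 9 genes without the block and 0 with it, where it called 0.97% and 15.4% of all genes. DESeq2 likewise called 0 of 9 without and with the block, where it called 2.26% and 15.5% of all genes. In edgeR 0 were at an unadjusted p under 0.05 without the block and 2 with it, again without the share of all genes. The lowest blocked adjusted p was that of Gpd1 (0.15 ± 0.06, adjusted p = 0.0821). Over all libraries the calls of G0s2, Aqp7 and Gk for 1 gapmer are therefore not shown to differ between LNA1 and LNA2. With the block, 1 of 9 genes was called between them in the fit without unstimulated LNA1 replicate 4. The same count was reached when ribosomal and mitochondrial genes were left out. The shares of all genes called in these fits are not given here. Without replicate 2 or without replicate 4 the blocked counts for LNA1 and LNA2 were 0 and 0, where 2.35% and 11.9% of all genes were called without replicate 2 and 0.591% and 6.88% without replicate 4.

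Cell type markers also moved with the gapmers. Pdgfra, a marker of preadipocytes and fibroblasts, rose with LNA1 (0.89 ± 0.13, edgeR adjusted p = 0.00743) and with LNA2 (0.71 ± 0.13, adjusted p = 0.0121). It was the 1 marker of the 5 lists called without the block. With the block Elovl3, of the brown adipocyte list, fell with both (adjusted p = 0.000931 with LNA1 and 0.00087 with LNA2), Plin1 fell with LNA1 (0.00449), and Fabp4 (0.0303), Pparg (0.00487) and Ppargc1a (0.019) fell with LNA2. Cd68 rose with both (0.0408 and 7.74e-05), and Ly6a (0.00549) and Csf1r (0.00677) rose with LNA2. The summed adipocyte markers lay between 10226 and 22614 CPM with ctrlA, 8748 and 19352 CPM with LNA1 and 9093 and 18967 CPM with LNA2, and the brown adipocyte markers between 338 and 547, 255 and 444, and 262 and 421 CPM. For preadipocyte markers the sums were 14.9 to 66.3, 20.2 to 74.9 and 21.2 to 71.9 CPM, for macrophage markers 8.17 to 24.7, 11.5 to 30.1 and 14.03 to 44.3 CPM, and for endothelial markers 2.14 to 3.69, 1.67 to 3.90 and 1.69 to 3.39 CPM. Their part in the gapmer values of the lipolysis genes was not tested.

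**Figure D4:**
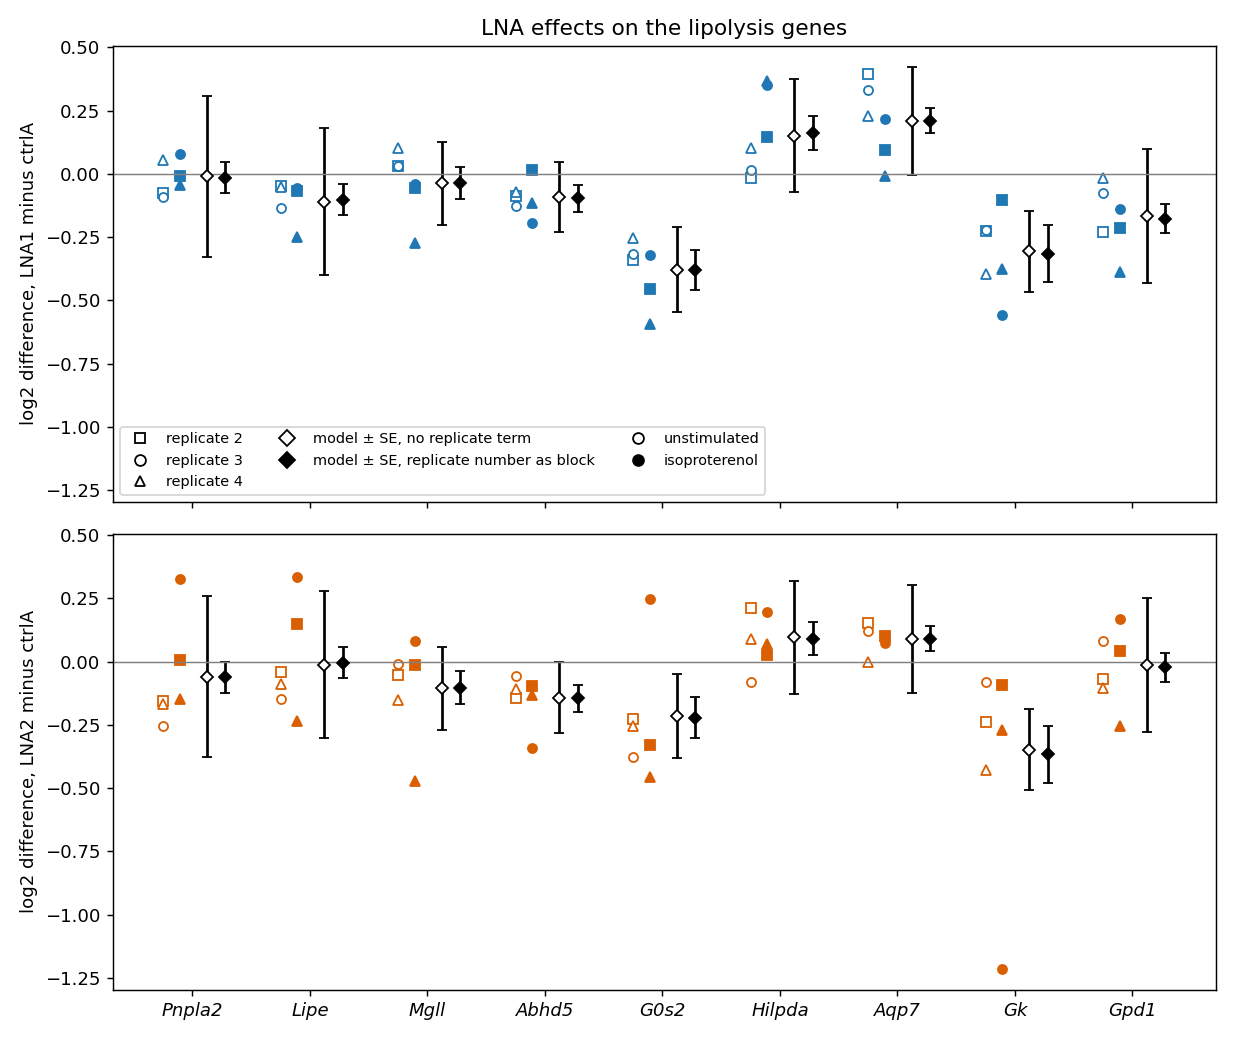
Log2 difference from ctrlA for each gene with LNA1 and with LNA2, with 1 point per pair of libraries of the same state and replicate number. G0s2 with LNA1 and Gk with both gapmers lie below 0 in 6 of 6 pairs, and the lowest Gk point (-1.21) is stimulated LNA2 replicate 3.

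The balance between enzymes and their partners was followed as 6 log2 ratios of counts within a library, which do not depend on library size. The ratio of Lipe to Pnpla2 fell from -0.21 ± 0.08 to -0.33 ± 0.11 (SD, n = 9 each; exact permutation test within LNAs, two-sided, p = 0.00175, adjusted over the 6 ratios p = 0.0105), and it was lower in 9 of 9 pairs. The ratio of Mgll to Lipe rose from -2.47 ± 0.27 to -2.11 ± 0.27 (exact permutation p = 0.0135, adjusted p = 0.0405), higher in 9 of 9 pairs. Both were also past the limit when signs were exchanged within the 9 pairs, taken as separate (adjusted p = 0.00781). The Mgll to Lipe call was kept in 8 of 21 settings that left out libraries, and the Lipe to Pnpla2 call in 19 (highest adjusted exact p = 0.222, without replicate 4, and 0.111, without replicate 3). The lipases thus changed unequally, with Lipe lower relative to both Pnpla2 and Mgll.

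For the inhibitor Hilpda relative to Pnpla2 the ratio was -4.36 ± 0.87 in unstimulated and -3.66 ± 0.87 in stimulated cells, a difference of 0.70 (exact permutation p = 0.132, adjusted p = 0.197) with 9 of 9 pairs higher and, within pairs, an adjusted exact p of 0.00781. Gk to Gpd1 went from -3.61 ± 0.56 to -2.83 ± 0.75, a difference of 0.79 (exact permutation p = 0.03, adjusted p = 0.06), with 8 of 9 pairs higher and an adjusted exact p of 0.0117 within pairs. The ratios of G0s2 and of Abhd5 to Pnpla2 each changed by -0.11 (adjusted exact p = 0.702 for both, and 0.0891 and 0.285 within pairs). The inhibitor G0s2, the activator Abhd5 and Pnpla2 had log2 ratios whose differences did not pass, which does not show that they stayed the same. The smallest p within pairs was 0.00391 over 512 arrangements, against 8000 arrangements for the test within LNAs.

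**Figure D5:**
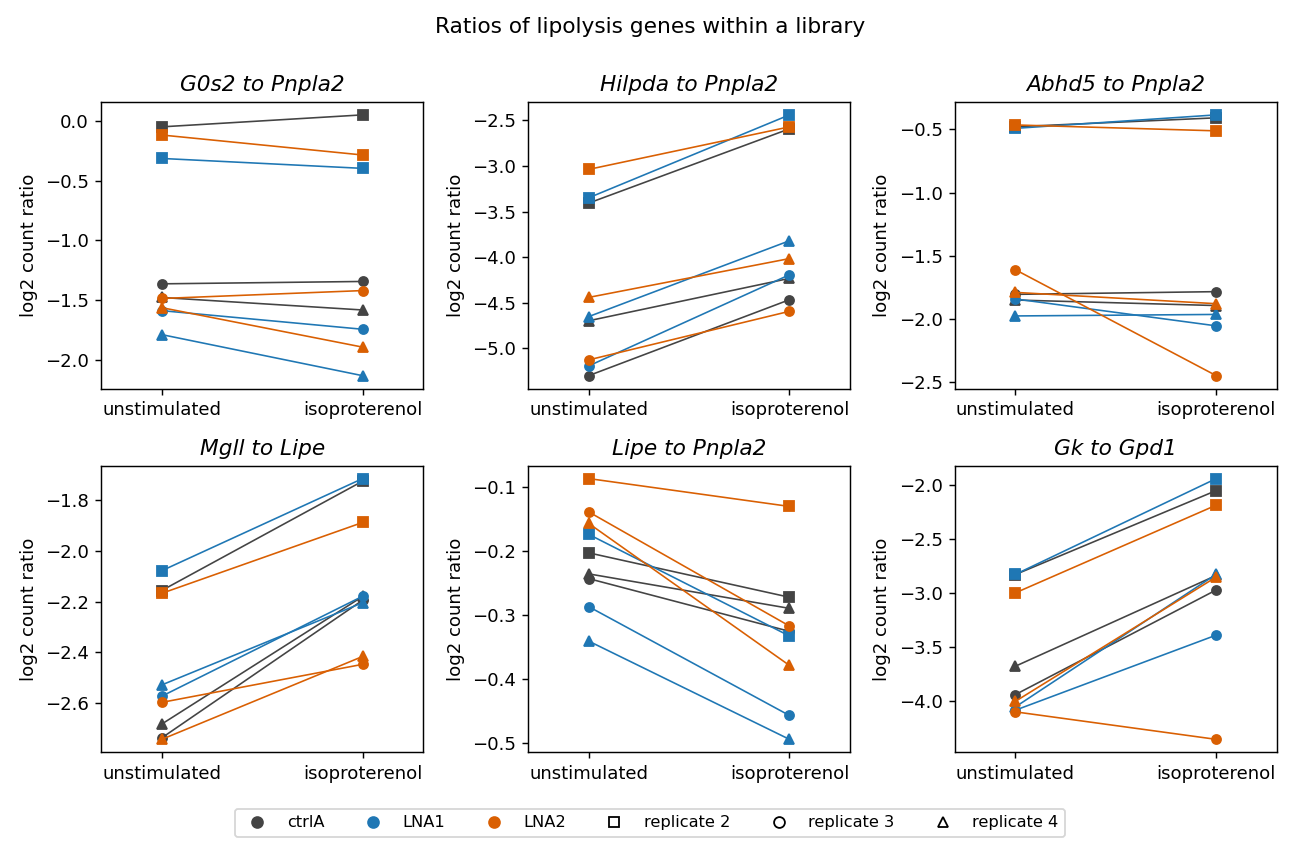
Log2 count ratio of 6 pairs of genes in unstimulated and stimulated libraries, with lines joining libraries of the same LNA and replicate number. All 9 lines rise for Hilpda to Pnpla2 and Mgll to Lipe, and all 9 fall for Lipe to Pnpla2.

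The wider pathway was described by 4 lists. Of 28 genes for hormone and cAMP input 25 were tested, of which 1 rose and 2 fell upon isoproterenol (5 and 7 with the block; median log2 fold change -0.0002). For all lists the share of all genes called was 4.58% without and 26.4% with the block. Adcy3, an adenylyl cyclase, rose from 4.25 to 18.8 CPM (2.14 ± 0.29, adjusted p = 0.000331, edgeR). Hcar1, the lactate receptor that restrains lipolysis, fell from 63.3 to 37.5 CPM (-0.75 ± 0.18, adjusted p = 0.0252), and Adcy5, another cyclase, also fell (-0.65 ± 0.16, adjusted p = 0.0288). Of 11 lipid droplet surface genes 10 were tested, of which 3 rose and 1 fell (4 and 3 with the block; median 0.06). Plin5, the perilipin of oxidative tissue that binds ATGL and CGI-58, rose from 8.70 to 20.2 CPM (1.21 ± 0.10, adjusted p = 1.9e-06). Cidea (1.27 ± 0.20, adjusted p = 0.0011) and Cideb (1.25 ± 0.15, adjusted p = 9.24e-05) rose, and Cidec, which promotes large droplets, fell from 1702 to 1298 CPM (-0.39 ± 0.08, adjusted p = 0.0117). The all-gene median was -0.0021.

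Of 21 other lipases and homologues of the 9 genes 20 were tested, of which 1 rose and 3 fell (3 and 3 with the block; median -0.001). Lipg, endothelial lipase, rose (0.71 ± 0.14, adjusted p = 0.0059, edgeR), while Pnpla3 (-0.53 ± 0.11, adjusted p = 0.00946), the glycerol kinase homologue Gk5 (-0.34 ± 0.09, adjusted p = 0.049) and Gpd1l, the homologue of Gpd1 (-0.25 ± 0.06, adjusted p = 0.0412), fell. Of 20 genes for fatty acid release, binding and re-esterification 18 were tested, of which 2 rose and 0 fell (3 and 8 with the block; median -0.02). Pck1, the enzyme of glyceroneogenesis, rose from 49.0 to 120.1 CPM (1.29 ± 0.25, adjusted p = 0.00683), and so did the lipin gene Lpin3 (0.50 ± 0.10, adjusted p = 0.00651). With the gapmers 0 genes of the lists were called for LNA1 without the block in edgeR, and with the block 2 rose and 0 fell, 0 and 3, 1 and 1, and 0 and 1 in the order above, where 7.8% of all genes were called. For LNA2 Prkacb, a catalytic subunit of protein kinase A, fell (log2 change of -0.64 ± 0.13, adjusted p = 0.0263), as did Gk5 (-0.98 ± 0.11, adjusted p = 0.000417). With the block 2 rose and 6 fell with LNA2 in the first list, then 1 and 3, 3 and 5, and 1 and 4, where 20.6% of all genes were called (1.59% without the block). The medians of the 4 lists were -0.02, -0.20, -0.06 and -0.11 with LNA1 and -0.07, -0.03, -0.06 and -0.05 with LNA2, beside -0.02 over all genes for each.

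Finally, the genes whose levels were most like each member over the 18 libraries were listed, after the mean of each replicate number was removed, among 10413 genes of at least 5 CPM. These correlations describe libraries that share state, gapmer and depth, and carry no test. For Pnpla2 they were Ano10 (r = 0.95) and Gpr146 (0.94), for Lipe Slc1a5 (0.99), Pcx (0.98) and Ipo9 (0.98), and for Mgll, with the weakest likeness, Ndufa9 (0.84), Stap2 (0.84) and Iqgap3 (0.82). Abhd5 was most like Ghr (0.98), Dock11 (0.97) and Stard4 (0.97), G0s2 like G6pdx (0.96), Rpia (0.96) and Coasy (0.95), and Hilpda like St3gal1 (0.94), Zpr1 (0.94) and Metrnl (0.93). Aqp7 was most like Slc1a3 (0.96), Abcd2 (0.95) and Chn1 (0.95), Gk like Hccs (0.96), Arl14ep (0.96) and Rps7 (0.95), and Gpd1 like Plin1 (0.94), G6pdx (0.94) and Paqr4 (0.93). Among the members themselves Pnpla2 and Lipe had r = 0.93, G0s2 and Gpd1 r = 0.90, Abhd5 and Hilpda r = -0.91 and Lipe and Hilpda r = -0.78.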

How the data were processed

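The authors prepared polyA libraries (NEBNext Ultra II, paired-end), used cutadapt for trimming and salmon for quantification (Gencode M22, GRCm38); versions, summing to genes and strand use are not given in the sources used here. The deposited values are expected counts per gene, already whole numbers, in 18 columns that were all matched to a labelled sample; 0 columns were left unmapped. Replicates were 3 per group, and no 2 libraries of a group were identical (chi-square per degree of freedom 4.32 to 177 over 18 pairs).

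Counts were normalised by TMM and tested with edgeR 4.0.16 (R 4.3.3) quasi-likelihood fits of 1 coefficient per group, after filterByExpr (minimum count 10, total 15), with Benjamini-Hochberg adjustment over 14949 genes and a limit of 0.05, two-sided. CPM were computed with TMM-scaled library sizes. The scripts were tested on simulated data. Libraries with the same replicate number deviated from their group means together: the correlation lay between 0.240 and 0.722 in all 45 pairs of libraries, and 17 of 18 libraries correlated best with their own number. The number was therefore taken as pairing libraries, from the data and not from a stated shared culture, and blocked values are given where they change a call of a member or marker, and as counts for the pathway lists. Ratios used a pseudocount of 0.5 and exact permutation tests. Gene models came from GENCODE M21 and promoters from RefSeq.

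Alternatives were the replicate block, DESeq2 1.42.0, DESeq2 size factors, ribosomal and mitochondrial genes left out, no filter, a log2 limit of 0.5, only the compared groups, other pseudocounts (0 and 5), and leaving out each library or replicate number. The blocked fit under DESeq2, under both normalisations, with the log2 limit and with libraries left out was added after seeing the data. Members, gene lists and tests were chosen with earlier results of these data known. All members are named; pathway genes are named where edgeR called them with isoproterenol without the block, and the 3 genes most like each member by Pearson r on log2 CPM (prior count 2, at least 5 CPM), of which 1 is not reported here. Prkacb and Gk5 with LNA2 and cell type markers are named beside them; Prkacb and Gk5 were chosen after their LNA2 values were seen. The floor is 3 counts and covers counting error only. No protein sequence was used.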

Additional observations from a re-analysis of the deposited data

Results flagged for a closer look

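Of 27 sets of pair differences, each tested for a pair far from the rest, 8 stood out. Chance flags about 1 in 20 sets that are independent. These sets share libraries, so the 8 cannot be set against that rate. Of these, 7 concerned replicate 3 of stimulated LNA2 cells. In the stimulation difference (log2, stimulated minus unstimulated) that pair was at 0.14 for Pnpla2 (the other 8 at -0.51 to -0.20), -0.70 for Abhd5 (-0.48 to -0.26), 0.21 for G0s2 (-0.66 to -0.32) and -0.34 for Gk (0.46 to 0.84). In the LNA2 difference (LNA2 minus ctrlA) it was at -0.34 for Abhd5 (the other 5 at -0.14 to -0.06), 0.25 for G0s2 (-0.46 to -0.22) and -1.21 for Gk (-0.43 to -0.08). The last was Gpd1, whose stimulation difference was -0.53 in replicate 4 of LNA1 cells (the other 8 at -0.31 to -0.08).

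For Mgll, LNA1 was above ctrlA in all 3 pairs of unstimulated and below it in all 3 pairs of stimulated libraries, and the mean difference moved by -0.18. The difference itself was tested as an interaction in edgeR and did not pass (log2 difference -0.19, SE 0.33, adjusted p = 1; with the block -0.18, adjusted p = 1).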

How the results depend on the processing

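With the replicate number as a block (replicate block) the counts of called genes were 8 with isoproterenol over all LNAs, 6 in ctrlA, 8 in LNA1 and 3 in LNA2 cells, 2 with LNA1 and 1 with LNA2; it changed no call of the direct or interaction comparisons. DESeq2 gave 3 with isoproterenol, where it called 7.12% of all genes. DESeq2 with the block gave 8, 7, 8, 4, 3 and 3 in the same order of comparisons. There it called 25.6%, 8.69%, 10.6%, 11.1%, 8.65% and 21% of all genes. Within pairs the log2 ratios of Hilpda to Pnpla2 (0.70) and Gk to Gpd1 (0.79) passed the limit. Without ribosomal and mitochondrial genes the LNA2 log2 fold changes turned to 0.0042 (Lipe, 0.0064 with the block) and 0.0027 (Gpd1), and 1 gene was called between LNA2 and LNA1 with the block. The share of all genes called in that fit is not given here, so this count cannot be set against it. With a log2 change above 0.5 also required, the blocked counts were 2 with isoproterenol over all LNAs, 1 in ctrlA, 5 in LNA1 and 0 in LNA2 cells, 0 with LNA1 and 0 with LNA2, as fewer of the same calls meet 2 limits, and the counts without the block did not change. The share of all genes that met both limits is not given here, so these counts cannot be set against it or used to compare the LNAs.

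Over the 21 fits that left out a library or a replicate number, the counts without the block ranged from 0 to 4 with isoproterenol (0 without unstimulated ctrlA replicate 3, unstimulated LNA1 replicate 3, replicate 3 or replicate 4, and 4 without replicate 2) and from 0 to 1 in LNA1 cells. The share of all genes called with isoproterenol moved too: 10.9% without replicate 2, 0.612% without replicate 3 and 0.75% without replicate 4. In LNA1 cells 2.28% were called without replicate 2, where the count was 1. With the block the counts ranged from 1 to 8 in ctrlA, 2 to 8 in LNA1 and 1 to 7 in LNA2 cells, from 0 to 4 with LNA1, 0 to 3 with LNA2 and 0 to 1 between them. The count between LNA1 and LNA2 was 1 without unstimulated LNA1 replicate 4, where the share of all genes called is not given here. Without stimulated LNA2 replicate 3 the other blocked counts were 8, 8 and 7, and 4 and 3, where 12.8%, 15.4% and 7.39%, and 15% and 22% of all genes were called. Without replicate 2 they were 1, 2 and 1, and 0 and 0, where 2.36%, 3.63% and 2.37%, and 2.35% and 11.9% were called. Without the block the log2 fold change of Mgll with isoproterenol was -0.10 to 0.0255. With LNA1 Pnpla2 was at -0.14 to 0.15, Lipe at -0.24 to 0.0392 and Mgll at -0.12 to 0.0550. With LNA2 Pnpla2 was at -0.22 to 0.11, Lipe at -0.17 to 0.14, Mgll at -0.21 to 0.0071, Hilpda at -0.0508 to 0.22, Aqp7 at -0.0145 to 0.21 and Gpd1 at -0.17 to 0.12. With the block Mgll was at -0.0835 to 0.0069 with isoproterenol; with LNA1 Pnpla2 was at -0.0363 to 0.0235 and Mgll at -0.0593 to 0.0192; with LNA2 Lipe was at -0.0643 to 0.0751, Mgll at -0.18 to 0.0014 and Gpd1 at -0.0966 to 0.0549. The log2 ratios ranged from -0.28 to 0.0453 (G0s2 to Pnpla2), 0.50 to 0.89 (Hilpda to Pnpla2), -0.30 to 0.0441 (Abhd5 to Pnpla2), 0.31 to 0.43 (Mgll to Lipe), -0.15 to -0.11 (Lipe to Pnpla2) and 0.63 to 0.99 (Gk to Gpd1). The cause of these shifts was not tested.

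The remaining values kept their direction and their side of the limit under the other normalisation, without a filter, under the other pseudocounts and with only the compared groups. Depth did not limit the 9 genes, but Gm15551 was near the floor, and 3 libraries per group from 1 line limit the precision. The main doubts are the replicate 2 libraries, which stand apart in ribosomal and mitochondrial content, and stimulated LNA2 replicate 3.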
